A study of Mus musculus with 2 samples.

Results

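The proteasome genes of mouse M-MDSCs were examined in a pair of RNA-seq libraries. Members were all genes whose symbol begins with Psma, Psmb, Psmc, Psmd, Psme, Psmf or Psmg and ends in a number, which selected 48 of the 34745 genes listed. They were chosen by name and not by their values, though with earlier results of these data known. They are 17 genes of the 20S core, of which Psmb8, Psmb9 and Psmb10 encode the immunoproteasome catalytic subunits, 17 genes of the 19S regulatory particle, and the activators, inhibitor, assembly chaperones and tissue-restricted subunits that remain. Of these, 47 had reads in both libraries and at least 1 FPKM, a read count scaled to a gene length and to the library total, in at least one library. Psmb11, the thymus-specific catalytic subunit, had 0 reads in both.

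Bone marrow cells of mice were induced for 7 days with GM-CSF alone (CHBP- M-MDSC) or with GM-CSF and CHBP (CHBP+ M-MDSC). GM-CSF is a myeloid growth factor, and CHBP is the cyclic helix B peptide, a derivative of erythropoietin that does not stimulate red cell production. M-MDSCs, the monocytic class of myeloid-derived suppressor cells, were then separated by flow cytometry, and the study's gate is CD11b+Ly6G-Ly6C high. The question of the sequencing was how M-MDSC mRNA differed with and without CHBP. The strain is labelled C57BL/6 in the CHBP- library but C57BL/7 in the CHBP+ library, although the growth protocol names C57/B6 for each. The labels give no age, sex, genotype, CHBP dose or number of pooled mice. The study's methods do give an age range of the mice and a CHBP dose, but that dose does not match those in its results. Both conditions carried GM-CSF, so no untreated cells were compared. Each condition was 1 library, so CHBP cannot be told apart from any other difference between these libraries, and no replicate error can be given.

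The libraries held 16484504 counted reads in CHBP- and 16280466 in CHBP+ M-MDSC, and a gene at 0 could still be present at up to 0.182 and 0.184 CPM (counts scaled to a common library total), the level of 3 reads. Itgam, which encodes CD11b, Csf1r and Ly6c2 were present in both libraries, and Ly6g, which was gated out, was at 2.19 and 2.12 FPKM. The genes of the gate were not at the same level in both. Itgam had 18653 reads in CHBP- and 27265 in CHBP+ M-MDSC, and a further Itgam entry had 8703 and 13147. Csf1r was slightly higher in CHBP+ M-MDSC (10908 and 12000 reads), whereas Ly6c2 was lower (4091 and 2411 reads). Whether these differences bear on the proteasome values was not tested. Markers of other cells also differed between the libraries. The 4 erythroid markers summed to 944 FPKM in CHBP- and 370 in CHBP+ M-MDSC (5.01 to 708 FPKM per marker), and the 5 neutrophil markers to 100.1 and 66.3. Most of the neutrophil sum was Elane (75.2 and 46.3 FPKM, 1141 and 694 reads), although Mpo had more reads (1535 and 1164). Ltf was slightly higher in CHBP+ M-MDSC (1.54 and 1.63 FPKM). The 5 mast cell or basophil markers summed to 284 and 229 FPKM, although Kit among them was higher in CHBP+ M-MDSC (3.02 and 3.51). The 3 B cell markers summed to 25.8 and 17.0 FPKM, and the 7 dendritic cell markers to 798 and 677. Within that last list Cd74 was at 567 and 438 FPKM, Itgax was higher in CHBP+ M-MDSC (107 and 142), and Xcr1 was at 0 in both. All 5 T cell markers were below 1 FPKM. The part of these cells in the results was not tested, and in bulk RNA fewer cells of a type and less RNA per cell cannot be told apart.

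The proteasome is the protease that degrades most ubiquitin-tagged proteins of the cytosol and nucleus. Its barrel, the 20S core, has outer rings of alpha subunits that gate the entrance and inner rings of beta subunits, of which Psmb5, Psmb6 and Psmb7 encode the proteolytic ones. The 19S particle docks on the barrel, binds ubiquitin chains, removes them and unfolds the substrate with a ring of ATPases. Interferon-gamma induces Psmb8, Psmb9 and Psmb10, which replace the standard catalytic subunits in newly built particles and favour peptides that fit MHC class I, and haematopoietic cells carry many such particles at rest.

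The upstream sequences of 4 catalytic genes, standard and interferon-inducible, are shown. They come from the RefSeq promoter windows (GRCm38.p6), end at the base before the gene start and read 5′ to 3′ on the gene's strand, with capitals on every match to the motifs searched on both strands. These motifs were TGACNNNGC (antioxidant response element core), GAAANNGAA (interferon-stimulated response element core), TTCNNNGAA (gamma-interferon activated site), the promoter box CCAAT, and the GC box, spelled GGGCGG. The capitals mark TGACNNNGC in Psmb5 and in Psmb6, which also holds a GC box, TTCNNNGAA in Psmb8, and a GC box and a CCAAT box in Psmb9. The stretch before Psmb10 was searched too, held no match to any of these motifs and is not shown. GAAANNGAA was in none of the stretches searched.
Psmb5 (beta5), chr14:54617996-54618245, minus strand: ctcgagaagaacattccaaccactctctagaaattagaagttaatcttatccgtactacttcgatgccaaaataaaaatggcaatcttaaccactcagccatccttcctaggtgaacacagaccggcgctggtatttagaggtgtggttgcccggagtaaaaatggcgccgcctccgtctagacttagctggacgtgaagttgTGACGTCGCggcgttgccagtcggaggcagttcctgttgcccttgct
Psmb6 (beta1), chr11:70525107-70525356, plus strand: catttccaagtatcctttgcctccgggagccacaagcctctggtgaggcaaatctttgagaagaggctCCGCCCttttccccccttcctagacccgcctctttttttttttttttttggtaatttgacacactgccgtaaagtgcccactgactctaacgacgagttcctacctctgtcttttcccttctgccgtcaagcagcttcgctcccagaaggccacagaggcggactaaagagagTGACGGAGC
Psmb8 (beta5i), chr17:34197945-34198194, plus strand: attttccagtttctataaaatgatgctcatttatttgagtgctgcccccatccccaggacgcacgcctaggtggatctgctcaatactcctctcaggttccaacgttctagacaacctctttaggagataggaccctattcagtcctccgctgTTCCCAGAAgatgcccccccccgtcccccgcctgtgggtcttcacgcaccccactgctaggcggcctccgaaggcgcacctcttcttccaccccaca
Psmb9 (beta1i), chr17:34187331-34187555, minus strand, the stretch between its start and that of Tap1, the peptide transporter gene on the opposite strand: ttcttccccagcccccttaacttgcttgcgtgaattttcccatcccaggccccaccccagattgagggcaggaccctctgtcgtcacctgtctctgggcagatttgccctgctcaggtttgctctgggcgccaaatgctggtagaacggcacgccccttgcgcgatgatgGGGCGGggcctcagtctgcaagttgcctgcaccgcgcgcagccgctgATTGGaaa
Gene positions are given as deposited, on GRCm38. The stretch shown for Psmb8 lies within the deposited span of the gene (chr17:34197721-34201454), and that of Psmb9 within the deposited span of Psmb9, since the deposited annotation starts both genes further upstream than RefSeq does. Windows of 300 bases were matched for 40 of the 48 members. A member was counted when any of its windows held the motif, whereas the share for all genes is of single windows. The 2 shares are therefore not alike, and a gene with several windows has more chances to match. TGACNNNGC was in 6 of the 40, or 15.0%, against 12.4% of 32851 promoter windows of all genes. GAAANNGAA was in 7 (Psmb3, Psmb4, Psmc2, Psmd4, Psmd9, Psme1 and Psmg4), or 17.5%, against 8.56% of all windows. TTCNNNGAA was in 3 (Psmb8, Psmd2 and Psmg1), or 7.5%, against 8.30%, and CCAAT in 14, or 35%, against 37.4%. GGGCGG was in 23 of the 40, or 57.5%, against 35.7% of all windows. No match shown overlaps another, and a match is a description of the letters and not a site in use.

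Proteasome genes had fewer reads in CHBP+ than in CHBP- M-MDSC across almost the whole family, and by a small margin for each gene. The members took 0.587% of all counted reads in CHBP- M-MDSC (96765 reads, 95% Clopper-Pearson interval 0.583 to 0.591%) and 0.492% in CHBP+ M-MDSC (80028 reads, 0.488 to 0.495%). The log2 ratio of a gene, taken after adding 1 to its FPKM and with CHBP+ over CHBP-, had a median of -0.30 over the 47 members and of -0.03 over all 10948 genes kept. It was below 0 for 44 of the 47, whereas 53.7% of all genes kept were below 0. The 3 members above 0 were Psmd1, Psmd2 and Psme4. The lowest value was -0.63 (Psmg1) and the highest 0.32 (Psme4).

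Only Psmg1 was at least 1.5-fold lower in CHBP+ M-MDSC, where 2.89% of all genes kept were, and 0 members were at least 1.5-fold higher, where 3.42% of all genes were. Psmb3 was just short of that threshold at -0.58 and was past it when CPM were used in place of FPKM. The reads of each gene were also set against the library totals with a two-sided exact binomial test, called here the read test, which covers counting error only and compares the libraries, not the conditions. By the read test, 38 of 47 members had fewer reads in CHBP+ M-MDSC, against 22.2% of 14162 genes tested, and 2 had more, against 21.9%. The 7 members that did not pass were Psma8, Psmd2, Psmd5, Psmd9, Psme3, Psmg2 and Psmg4, and for them a difference was not detectable at this depth.

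**Figure D1:**
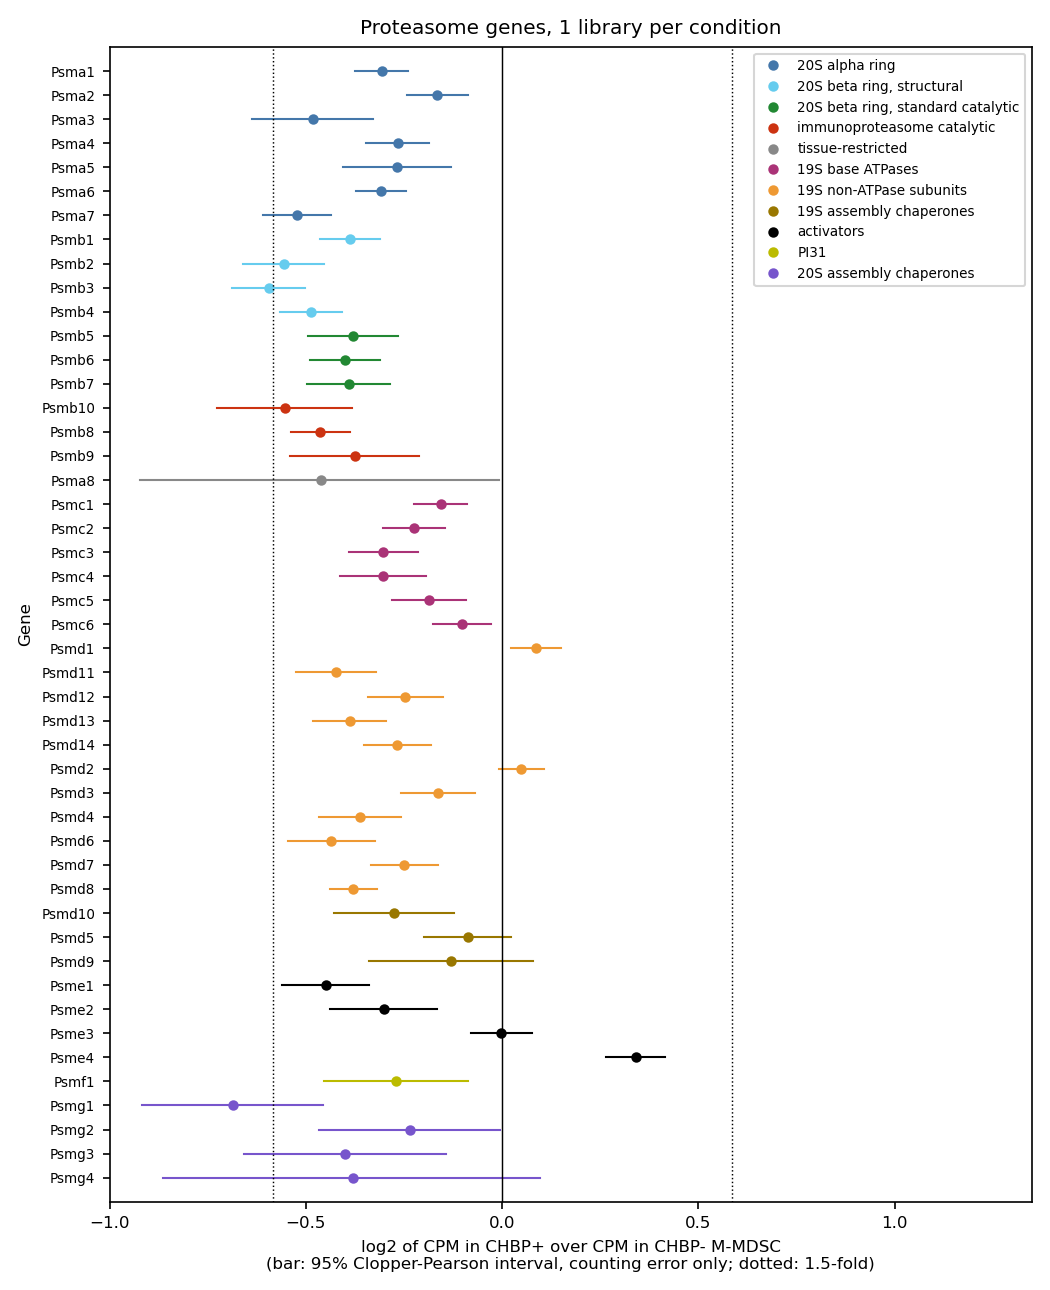
Each point is the log2 of a gene's CPM in CHBP+ over its CPM in CHBP- M-MDSC for the 47 members with reads (1 library each), the bar is its 95% Clopper-Pearson interval for counting error only, colours are subunit groups and dotted lines mark 1.5-fold. All 17 core subunits sit left of 0, and Psme4 stands furthest to the right.

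These differences went with transcript length. Across 10212 genes kept with a length in the GENCODE M1 annotation, log2 ratio and longest coding transcript were related with a Spearman's rho of 0.687, and over the 47 members of 0.617. The genes come from the same pair of libraries and are not independent. The members are short, with a median of 1440 bases against 2893 for all genes kept, and 43 of the 47 lie below that figure. Among all genes with transcripts between 1136 and 2004.5 bases, the lower and upper quartile of the members' lengths, the median log2 ratio was -0.21, 86.1% were below 0 and 54.1% had fewer reads by the read test. The 23 members in that range had a median of -0.29, all 23 were below 0 and 21 had fewer reads by the read test.

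With a cubic trend of the log2 ratio on length removed, the median of the members was -0.06 and that of all genes -0.01. Then 33 members were below 0 and 14 above, where 51.9% of all genes were below 0. The lowest remaining difference was -0.39 (Psma3) and the highest 0.08 (Psmd1), against an SD of 0.248 over all genes. What lies behind the length trend was not tested, so the log2 ratios that follow hold as values of these libraries, and the value after removal of the trend is given beside those on which a result turns.

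**Figure D2:**
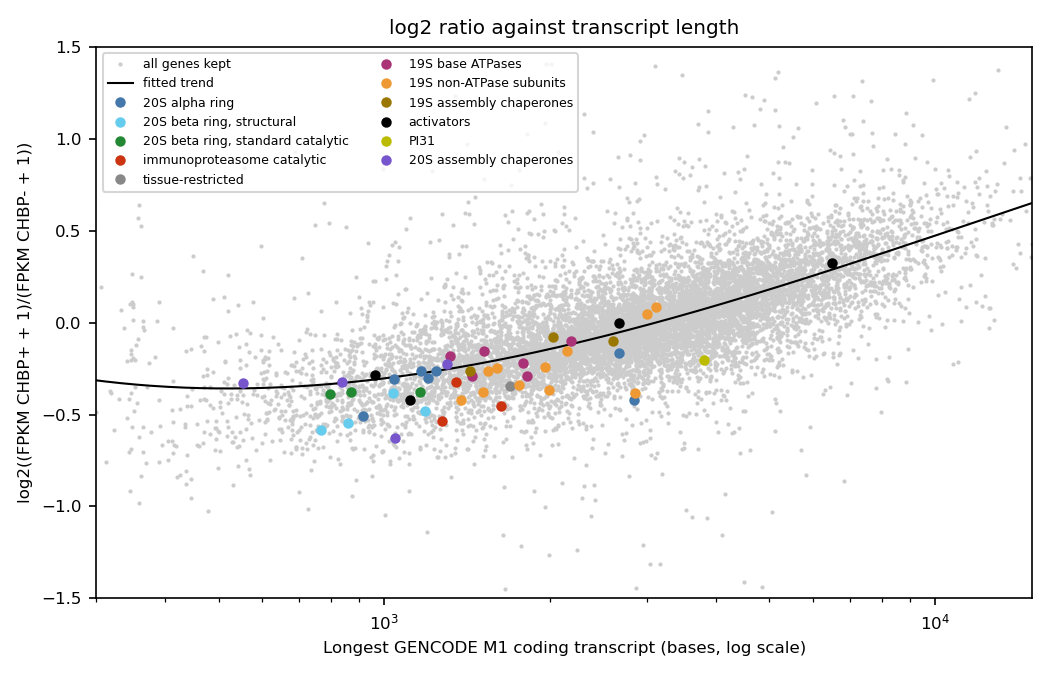
The log2 ratio of FPKM + 1 (vertical) is plotted against the longest GENCODE M1 coding transcript in bases (horizontal, log scale) for all genes kept in grey and the members in colour, with the fitted cubic trend as a line. Most members lie at the short end and on or below the line, and Psme4 lies at the long end close to it.

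The 20S core was lower in CHBP+ M-MDSC in every subunit. Its 17 genes took 0.238% of reads in CHBP- and 0.182% in CHBP+ M-MDSC. Their median log2 ratio was -0.39, and -0.10 after removal of the length trend. All 17 had fewer reads by the read test. That share was 22.2% of all genes tested, and 54.1% of genes kept with transcripts of 1136 to 2004.5 bases. The core transcripts run from 766 to 2846 bases, with a median of 1165, so that range does not match the core's lengths. Both shares also stand beside the counts of genes with fewer reads in the groups below. The range was not matched to the lengths of those groups either, and a share for shorter transcripts is not given here. The alpha ring, whose N-terminal tails close the pore of the barrel, had a median of -0.30 over Psma1 to Psma7. Psma7 was the lowest of them, with 2589 reads in CHBP- and 1780 in CHBP+ M-MDSC (36.7 and 25.5 FPKM, log2 ratio -0.51). Psma2 was the closest to 0, with 2817 and 2481 reads (log2 ratio -0.16). Psma3 had 842 and 595 reads (log2 ratio -0.42) and, at 2846 bases, the longest transcript of the ring, ahead of Psma2 at 2668. After removal of the length trend Psma3 was the lowest of all members, whereas Psma4 and Psma5 came to 0.02 and 0.0030, on the other side of 0. That rank depended on the length used. With the trend on the length behind the deposited FPKM, Psmd11 was the lowest at -0.51 and Psma3 was at -0.44.

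The structural beta subunits, which shape the inner rings without cutting substrate, had the lowest median of the groups with more than 1 member, -0.51. Psmb3 (chr11:97703399-97713500) had 2336 reads in CHBP- and 1527 in CHBP+ M-MDSC (55.4 and 36.6 FPKM). Its CPM ratio was 0.662 (95% interval 0.620 to 0.706), and its log2 ratio after removal of the length trend was -0.24. Psmb1 was the highest of the group at -0.39, with 3179 and 2400 reads. Psmb2 had 1914 and 1285 reads, and Psmb4 had 3097 and 2183. All 4 were still below 0 after removal of the trend, between -0.24 and -0.09.

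The standard catalytic subunits were lower by nearly the same amount as each other. Psmb5, the chymotrypsin-like beta5 subunit (chr14:54614120-54617995), had 1441 reads in CHBP- and 1093 in CHBP+ M-MDSC (100.4 and 77.1 FPKM). Psmb6, the caspase-like beta1 subunit (chr11:70525367-70527858), had 2409 and 1803 reads, or 47.0 and 35.6 FPKM. Psmb7, the trypsin-like beta2 subunit (chr2:38588036-38644087), had 1696 and 1278 reads, or 28.9 and 22.1 FPKM. Their CPM ratios were 0.768 (95% interval 0.709 to 0.831), 0.758 (0.713 to 0.806) and 0.763 (0.709 to 0.821), so the intervals of the 3 overlap. After removal of the length trend they were -0.05, -0.06 and -0.10 on the log2 scale. Psmb7 overlaps Nek6, which had 2495 and 3197 reads, and whether the counting used strand is not stated in the sources used here.

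The immunoproteasome catalytic subunits were lower too. Psmb8, beta5i, had 3470 reads in CHBP- and 2486 in CHBP+ M-MDSC (54.7 and 39.7 FPKM). Psmb9, beta1i (chr17:34181988-34187764), had 704 and 536 reads, or 6.78 and 5.22 FPKM. Psmb10, beta2i (chr8:105935728-105938392), had 697 and 469 reads, or 33.3 and 22.7 FPKM. Their CPM ratios were 0.725 (95% interval 0.689 to 0.764), 0.771 (0.688 to 0.864) and 0.681 (0.605 to 0.767), and all 3 had fewer reads by the read test. After removal of the length trend the log2 ratios were -0.25, -0.08 and -0.28. Psmb9 overlaps Tap1, with 1138 and 854 reads, so that the reads of these genes near their shared start cannot be told apart where strand was not used.

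The balance of immunoproteasome against standard subunits in reads did not differ between the libraries beyond counting error, but for beta5 this depended on the length trend. For each pair that occupies the same place in the ring, the reads of the inducible subunit were divided by those of the standard subunit within a library, which removes any scaling of the library. Psmb8 over Psmb5 was 2.41 in CHBP- and 2.27 in CHBP+ M-MDSC, a ratio of 0.945 (exact conditional 95% interval 0.859 to 1.04). Psmb9 over Psmb6 was 0.292 and 0.297, a ratio of 1.02 (0.893 to 1.16). Psmb10 over Psmb7 was 0.411 and 0.367, a ratio of 0.893 (0.776 to 1.03). For the sums of the 3 genes on each side, 4871 against 5546 reads in CHBP- and 3491 against 4174 in CHBP+ M-MDSC, it was 0.952 (0.897 to 1.01). All 4 intervals include 1, and over the 3 pairs they span ratios from 0.776 to 1.16, so a difference within that span could be present and not be seen at this depth. The genes of a pair differ in transcript length, 1628 bases for Psmb8 against 871 for Psmb5. With the length trend removed from both genes, the log2 difference was -0.20 for Psmb8 and Psmb5 instead of -0.08, and the counting interval moved by the same amount ran from -0.34 to -0.06, without 0. It was -0.02 for Psmb9 and Psmb6 instead of 0.02, and -0.18 for Psmb10 and Psmb7 instead of -0.16, with 0 inside both intervals. These moved intervals cover counting error only. They leave out the error of the fitted trend and the scatter of genes about it, with an SD of 0.248 over all genes. Whether the beta5 pair differs beyond that was not tested.

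Which of a pair was the more abundant mRNA depended on the length used. In CPM per kilobase of coding sequence, Psmb8 was at 253 in CHBP- and 184 in CHBP+ M-MDSC and Psmb5 at 110.0 and 84.4. Psmb6 was at 204 and 154 against 64.7 and 49.9 for Psmb9. Psmb7 was at 123 and 94.1 against 51.4 and 35.0 for Psmb10. On that scale the inducible beta5i mRNA exceeded its standard counterpart in both libraries, whereas beta1i and beta2i were below theirs. In CHBP- M-MDSC, Psmb8 over Psmb5 was 2.30 per coding kilobase, 1.29 per kilobase of the longest transcript and 0.545 by the deposited FPKM. Psmb10 over Psmb7 was 0.417, 0.375 and 1.15 on these scales, so only Psmb9 over Psmb6, at 0.317, 0.173 and 0.144, stayed on one side of 1. The length behind the deposited FPKM exceeds the gene's own span in the file for 5 members, Psmb6, Psmb8, Psmb9, Psmg3 and Psme1. It also does so for 6.46% of 12836 genes with enough reads to work it out, so the FPKM were not used to rank the members by level. The sums of cell markers above are in FPKM and rest on such lengths. These lengths are the same in both libraries and do not enter a CPM ratio, but through the added 1 they pull the log2 ratio of genes with low FPKM towards 0.

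**Figure D3:**
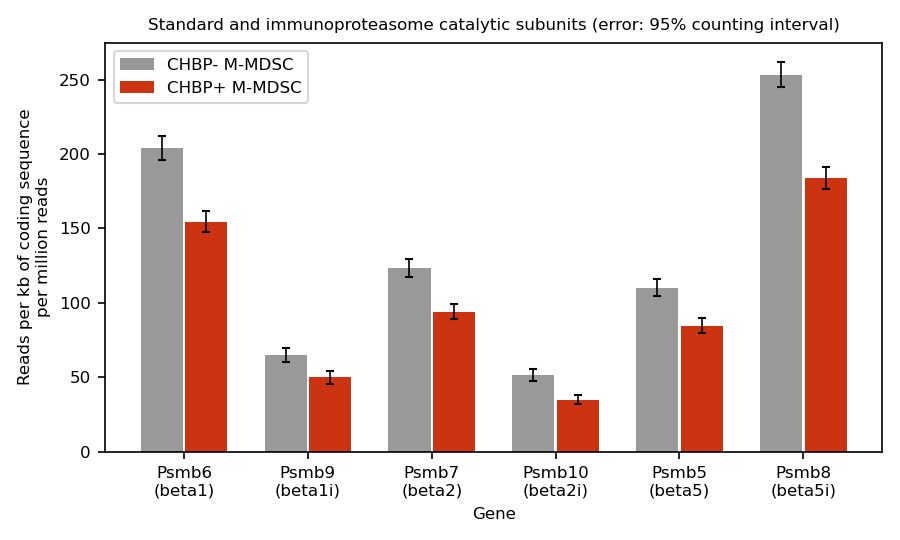
Bars show CPM per kilobase of coding sequence for the standard (beta1, beta2, beta5) and immunoproteasome (beta1i, beta2i, beta5i) catalytic genes in CHBP- (grey) and CHBP+ (red) M-MDSC, 1 library each, with 95% Clopper-Pearson intervals for counting error only. All 6 genes are lower in CHBP+, and Psmb8 is the highest in both libraries on this scale. Per kilobase of the longest transcript Psmb6 was higher, at 183 in CHBP- and 139 in CHBP+ against 129 and 93.8 for Psmb8.

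The 19S regulatory particle was lower by less than the core. Its 17 genes had a median log2 ratio of -0.25, against -0.39 for the 17 core genes, and 15 had fewer reads by the read test. After removal of the length trend these medians were -0.05 and -0.10. The particle's transcripts are longer, with a median of 1785 bases against 1165 for the core, and the difference between the particles was not tested.

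The base ATPases, which form the ring that unfolds substrates, all had fewer reads in CHBP+ M-MDSC, with a median of -0.20. Psmc3 was the lowest, with 2368 reads in CHBP- and 1896 in CHBP+ M-MDSC (log2 ratio -0.29). Psmc6 was the highest, with 3045 and 2802 reads (-0.10). After removal of the length trend 3 of the 6 were above 0 and 3 below, between -0.12 and 0.07.

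Of the 11 non-ATPase subunits, 9 had fewer reads, 1 had more and 1 did not pass, with a median of -0.26. Psmd6, a subunit of the lid, had 1558 and 1138 reads and the lowest log2 ratio of them (-0.42). The large scaffold subunits were on the other side of 0, and only Psmd1 passed the read test. Psmd1 (Rpn2), a scaffold of the base, had 3811 reads in CHBP- and 3994 in CHBP+ M-MDSC, a CPM ratio of 1.06 (95% interval 1.02 to 1.11). Psmd2 (Rpn1), the other large scaffold, which docks ubiquitin receptors, had 4780 and 4883 reads, a ratio of 1.03 (0.994 to 1.08). Both have long transcripts, of 3112 and 3001 bases, and stood at 0.08 and 0.06 after removal of the length trend.

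Other lid and ubiquitin-handling subunits were lower. Psmd14 (Rpn11), the deubiquitinase that releases ubiquitin chains, had 2466 and 2023 reads (log2 ratio -0.26), and Psmd4 (Rpn10), a ubiquitin receptor, had 1715 and 1318 (-0.34). Psmd8 (Rpn12) had 5207 and 3954 reads (-0.38) and was the 19S gene with the most reads in CHBP- M-MDSC. With the length trend removed these 3 stood at -0.05, -0.16 and -0.16. Psmd11 (Rpn6), which bridges the lid to the core, had 1827 and 1346 reads (-0.38) on a transcript of 2848 bases. It stayed at -0.35 after removal of the length trend, second only to Psma3 among all members. With the length behind the deposited FPKM it was the lowest of all members, at -0.51.

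**Figure D4:**
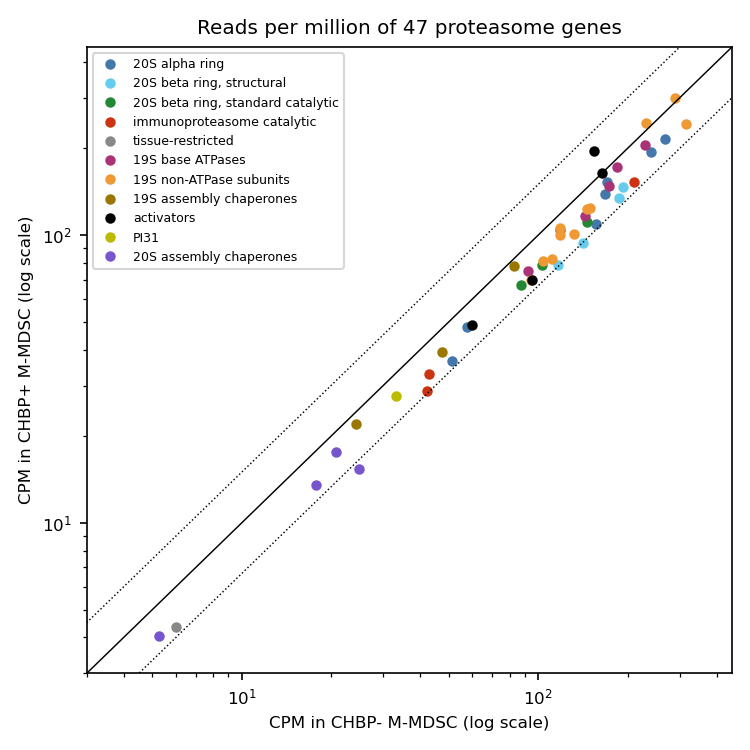
Each point is a member's CPM in CHBP- (horizontal) and in CHBP+ M-MDSC (vertical), both on log scales, for the 47 members with reads, coloured by group, with the line of equality solid and 1.5-fold lines dotted. Points lie under the line of equality except Psmd1, Psmd2 and Psme4, and only Psmb3 and Psmg1 lie past the lower dotted line.

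The activators split. Psme1 and Psme2 encode PA28 alpha and beta, an interferon-inducible ring that opens the core and is tied to peptide production for MHC class I. Psme1 (chr14:55578123-55581529) had 1572 reads in CHBP- and 1137 in CHBP+ M-MDSC, a CPM ratio of 0.732 (95% interval 0.678 to 0.791). Psme2 (chr14:55587441-55591113) had 987 and 791 reads, a ratio of 0.811 (0.738 to 0.892). Both had fewer reads by the read test, and after removal of the length trend they stood at -0.13 and 0.03. Psme2 has a near-copy elsewhere, the retrocopy Psme2b, listed with 1984 and 1404 reads, so reads may have been divided between them. With both summed, 2971 and 2195 reads gave a ratio of 0.748 (0.708 to 0.791).

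Psme3 and Psme4 did not share that direction in reads. Psme3, the nuclear PA28 gamma (chr11:101316213-101323537), had 2703 and 2665 reads, a ratio of 0.998 (95% interval 0.946 to 1.05). It stood at 0.05 after removal of the length trend. Psme4, the large nuclear activator PA200 (chr11:30771726-30880361), had 2544 reads in CHBP- and 3180 in CHBP+ M-MDSC (16.8 and 21.3 FPKM), a ratio of 1.27 (1.20 to 1.33). It had the highest log2 ratio of the members, and its transcript of 6491 bases is also the longest, and 0.03 remained after removal of the length trend.

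Assembly chaperones of the 20S core had few reads and wide counting intervals. The 20S chaperones Psmg1 to Psmg4, which build the alpha ring, had 5.28 to 24.8 CPM in CHBP- M-MDSC, and 2 of the 4 had fewer reads by the read test. Psmg1 (PAC1, chr16:95979933-95990960) had 409 reads in CHBP- and 251 in CHBP+ M-MDSC (13.9 and 8.62 FPKM), a CPM ratio of 0.621 (95% interval 0.529 to 0.729). Its log2 ratio of -0.63 was the lowest of all members, and -0.33 remained after removal of the length trend. Psmg2, which forms a heterodimer with Psmg1, had 342 and 287 reads (log2 ratio -0.22), the highest of the group. Psmg3 had 294 and 220 reads, and Psmg4, its partner, 87 and 66.

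The 19S base chaperones Psmd5, Psmd9 and Psmd10 had a median of -0.10. Psmd10 (gankyrin) was the lowest, with 782 and 638 reads (-0.27), and had fewer reads by the read test, whereas Psmd5 (1369 and 1272 reads, -0.08) and Psmd9 (399 and 360, -0.10) did not pass. Psmf1, which encodes the proteasome regulator PI31, had 547 and 448 reads (-0.20) and -0.28 after removal of the length trend, with a transcript of 3809 bases. Psma8, the testis alpha subunit, had 99 and 71 reads.

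Genes that feed, build or regulate the proteasome lay on both sides of 0. Of 26 such genes, 25 were listed, and their median log2 ratio was -0.01. Their transcripts are longer than those of the members, with a median of 2935 against 1440 bases, and with the length trend removed the medians were 0.04 and -0.06. By the read test 8 of the 25 had fewer reads in CHBP+ M-MDSC, 7 had more and 10 did not pass, beside the 22.2% and 21.9% of all genes with fewer and more. Nfe2l1 encodes Nrf1, the transcription factor that induces proteasome subunit genes when proteasome activity is short. It had 1190 reads in CHBP- and 3080 in CHBP+ M-MDSC (4.81 and 12.6 FPKM), and the highest log2 ratio of the list, 1.23. With a transcript of 4654 bases, 1.08 remained after removal of the length trend. Ube3a, a ubiquitin ligase that binds the proteasome, had 669 and 1277 reads (log2 ratio 0.63, and 0.44 after removal of the trend).

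Zfand2a, which encodes the arsenite-inducible proteasome-associated protein AIRAP, was the lowest of that list. It had 848 reads in CHBP- and 273 in CHBP+ M-MDSC (7.79 and 2.54 FPKM), and its log2 ratio of -1.31 stood at -1.32 after removal of the trend. Shfm1 (Sem1), a small 19S lid subunit whose symbol does not match the rule for members, had 2678 and 1806 reads (-0.54). On its transcript of 477 bases, -0.18 remained after removal of the trend. These were the genes furthest out in each direction, and Nfe2l1, Ube3a and Zfand2a were the ones past 1.5-fold by FPKM.

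Further genes of the list were picked for mention after their values were seen. Ddi2, the protease that cleaves Nrf1 into its active form, had 1538 and 2299 reads (log2 ratio 0.54, and 0.59 by CPM, past 1.5-fold), of which 0.09 remained after removal of the length trend on its transcript of 9553 bases. Ngly1, which removes glycans from Nrf1, had 751 and 772 reads and did not pass. Pomp, the chaperone that completes the beta ring, had 1825 and 1721 reads and did not pass, and its log2 ratio went from -0.06 to 0.28 with the length trend removed, on a transcript of 734 bases. Adrm1 (Rpn13), a ubiquitin receptor of the 19S particle, had 713 and 573 reads, and its associated deubiquitinase gene Uchl5 had 1144 and 1043. The ubiquitin genes Ubb (5757 and 4644 reads, log2 ratio -0.29) and Rps27a (1131 and 863, -0.36) had fewer reads by the read test, and stood at -0.07 and -0.02 with the length trend removed.

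**Figure D5:**
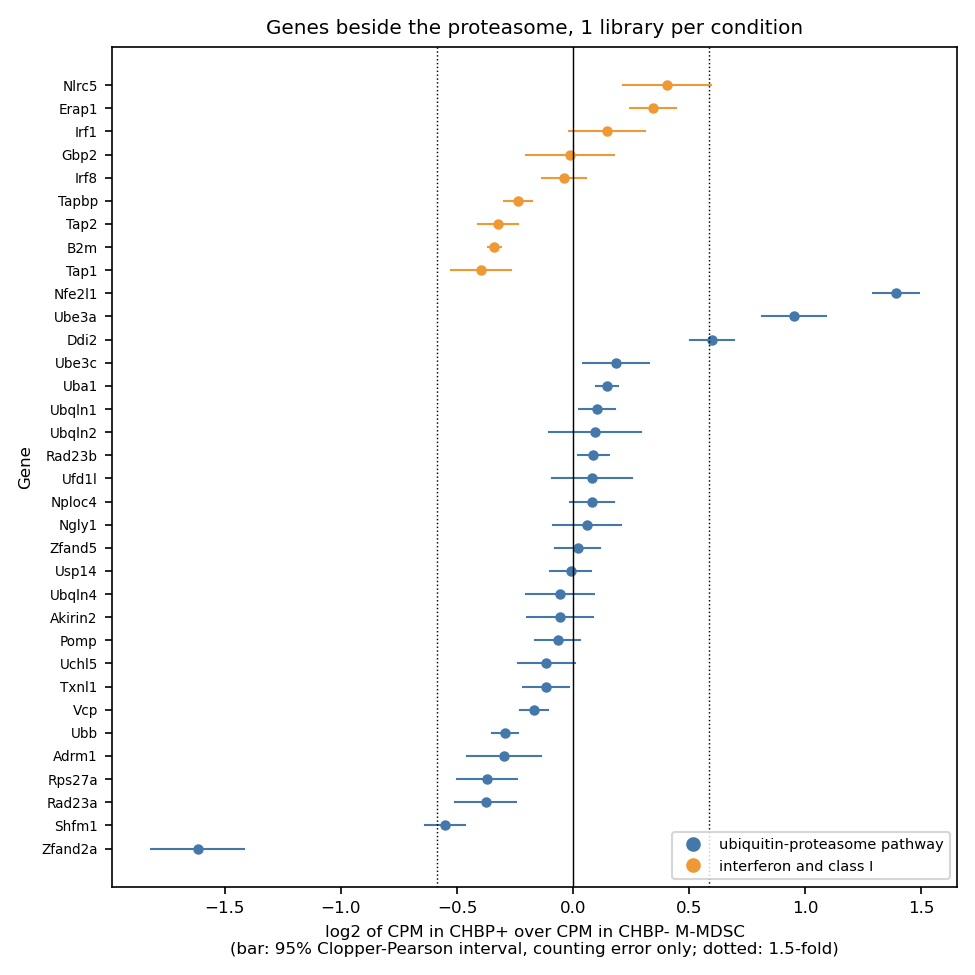
Each point is the log2 of CPM in CHBP+ over CPM in CHBP- M-MDSC for ubiquitin-proteasome pathway genes outside the family (blue) and for interferon and MHC class I genes (orange) with at least 1 FPKM in a library, with 95% Clopper-Pearson intervals for counting error only and dotted lines at 1.5-fold. Nfe2l1 and Zfand2a stand furthest from 0, on opposite sides.

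The interferon and MHC class I genes beside the immunoproteasome had a median log2 ratio of -0.04, against -0.03 for all genes kept. Of 11 genes, 10 had enough reads for the read test, 4 had fewer reads in CHBP+ M-MDSC, 2 had more and 4 did not pass, beside 22.2% and 21.9% of all genes with fewer and more. The 4 with fewer reads act in peptide loading. B2m, the light chain of class I, had 25110 and 19599 reads (log2 ratio -0.34), and Tap1 and Tap2, which carry proteasome products into the endoplasmic reticulum, had -0.33 and -0.31, with 1138 and 854 reads for the former and 2498 and 1973 for the latter. Tapbp (tapasin) had 5094 and 4266 reads (-0.23). After removal of the length trend these stood at -0.01 for B2m, -0.31 for Tap1, -0.35 for Tap2 and -0.21 for Tapbp.

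Those with more reads were Erap1 and Nlrc5. Erap1, which trims peptides for class I, had 1443 and 1809 reads (log2 ratio 0.33, and 0.18 after removal of the trend), and Nlrc5, the class I transactivator, had 402 and 525 (0.28). Nlrc5 had no transcript length in the annotation used. With the trend on the length behind the FPKM, 0.10 remained for it. Irf1, a transcription factor that induces the immunoproteasome genes, had 591 and 646 reads and did not pass. The interferon-gamma target Cxcl9 had 6 reads in CHBP- and 0 in CHBP+ M-MDSC, and Cxcl10 had 32 and 21, both below 1 FPKM.

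Reads of near-copies and neighbours limit some of these values. In all, 7 members overlap another gene that has reads: Psma3, Psmb7, Psmb9, Psmc3, Psmd1, Psmd13 and Psme1. Without them the median log2 ratio of the other 40 was -0.29. The pseudogenes of Psmb5, Psmb6 and Psmb7 that are listed had 0 reads in both libraries, other than Psmb7-ps2 with 6 and 2.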

How the data were processed

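mRNA of CHBP- and CHBP+ M-MDSC was sequenced as 1 library each. The authors filtered the reads and deposited a raw read count and an FPKM for each of 34745 genes. The methods name TopHat2 with mm9 and HT-seq, whereas the submitters' processing notes name HISAT2 2.0.4, Cufflinks 2.1.1, Cuffdiff and mm10 or GRCm38, on which the deposited coordinates lie. Strand and multi-mapping are not given in the sources used here. The deposited FPKM equals the count over a gene length and the sum of counts, with no other scaling.

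Members and gene lists were chosen with earlier results of these data known. Every member may be named, with full values for Psmb5 to Psmb10 and Psme1 to Psme4, the highest and lowest log2 ratio in other groups, and pathway genes that are the 2 highest, the 2 lowest or past 1.5-fold. Genes of at least 1 FPKM in one library were kept, with a pseudocount of 1. With 1 library per condition no quasi-likelihood, DESeq or limma fit was possible, and the P value of the methods was not repeated. For the read test, a gene's reads were set against the library totals by an exact binomial test (two-sided), and p-values were adjusted by Benjamini-Hochberg over all genes of at least 10 reads, with a threshold of 0.05. Reads are not independent molecules, so tests, 95% intervals and floors cover counting error only. Transcript and coding lengths came from GENCODE M1 (Psmb9 by symbol, the other members by identifier), and the length trend was a polynomial of degree 3. The read test was run on simulated counts with counting error only, and the trend removal on a simulated straight trend in log length with normal scatter. The simulated counts held no length trend and no variation between libraries. These runs therefore checked the working of the procedures and not how well they suit these libraries.

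Alternatives were pseudocount 0.1, no filter or 5 FPKM, fold 2, an adjusted p of 0.001, CPM, other scalings, removal of the length trend and leaving out overlapping members. Removal of the trend with the length behind the FPKM, or with length and GC content, and the sum of Psme2 and Psme2b were chosen after seeing the data. Paaf1 was not analysed here, and 3 genes of the pathway and interferon lists are not reported here. Python 3.11.15, numpy 2.4.6, pandas 2.3.3, scipy 1.17.1, matplotlib 3.10.9 and R 4.3.3 were used, with edgeR 4.0.16 only for the trimmed mean scaling.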

Additional observations from a re-analysis of the deposited data

How the results depend on the processing

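The median log2 ratio of the members stayed between -0.31 and -0.20 under the other pseudocount, filters, scalings, CPM, leaving out overlapping members and removal of the trend with the length behind the FPKM. It was -0.057 with the transcript length trend removed and -0.095 with length and GC content removed. Members at least 1.5-fold lower numbered 1, and 2 with pseudocount 0.1 or CPM, 0 at fold 2, and 0 with each of these 3 trends removed. Members at least 1.5-fold higher numbered 0 throughout. Members with more reads numbered 2, and 1 at an adjusted p of 0.001 (exact binomial test with Benjamini-Hochberg adjustment) or without overlapping members, where Psmd1 left. Members with fewer reads numbered 38, 33 at that stricter p and 32 without overlapping members. Another scaling moved log2 ratios by at most 0.028 in size. Centring on the median of all genes turned the sign of Psme3 (0.026), Usp14 (0.019) and Gbp2 (0.016), and trimmed mean scaling that of Psme3 (0.011), Usp14 (0.0038) and Gbp2 (0.00066), none of which passed the read test.

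Directions turned under trend removal. With the transcript length trend removed, 11 members and 7 of the other list genes changed sign, and those that had passed the read test were Psma4 (0.015), Psma5 (0.0030), Psmc1 (0.062), Psmc5 (0.067), Psmc6 (0.016), Psme2 (0.026), Psmg3 (0.0060) and Ube3c (-0.034). The other members were Psmd5 (0.061), Psme3 (0.051), Psmg2 (0.031) and Psmg4 (0.029), and Pomp turned to 0.28. With the length behind the FPKM, 7 members and 5 other genes changed sign, and those that had passed were Psma2 (0.068), Psmc1 (0.040), Psmc5 (0.0070), Psmc6 (0.092), Psmd1 (-0.0057), Txnl1 (0.018) and Ube3c (-0.012). With length and GC content, 8 members and 9 other genes changed sign, and those that had passed were Psmc1 (0.036), Psmc5 (0.056), Psmd3 (0.032), Psme2 (0.024), Psmg3 (0.041), Rad23b (-0.016), Ube3c (-0.050) and Adrm1 (0.067). The removal of each trend makes these shifts by construction, and whether the trend is technical was not tested. With the length trend removed, the log2 of the Psmb8 to Psmb5 ratio between the libraries went from -0.08 to -0.20, and its counting interval, moved alike, no longer included 0. That interval leaves out the error of the fitted trend and the scatter of genes about it.

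No paired analysis was possible because each condition is 1 library. Leaving out a replicate was not run for the same reason. Depth limited genes with few reads, such as Psma8, Psmg4 and Cxcl9.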
